A study of Mus musculus with 6 samples.

Results

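The genes described here encode the proteins that dock, prime and fuse vesicles, above all the synaptic vesicles that release transmitter. They were taken from the gene count table by symbol: the syntaxins (Stx), syntaxin-binding proteins (Stxbp), vesicle-associated membrane proteins (Vamp), the Snap proteins, synaptotagmins (Syt), synapsins (Syn), complexins (Cplx), RIM proteins (Rims) and Munc13 proteins (Unc13). This gave 67 of the 24421 rows, of which 62 were among the 14916 genes with enough counts to be tested. RNA sequencing was done on hippocampus of 3 wild type mice and 3 mice with a conditional knockout of Ctcf (cKO), whose product is the DNA-binding architectural protein that anchors chromatin loops. Both genotypes were on the strain given as C57/Bl, and the labels name no other allele and no treatment. No Cre line, target cell type, age or sex is given in the labels. The study's description calls the 3 mice of each genotype biological replicates.

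Vesicle fusion is carried out by SNARE proteins. A vesicle SNARE such as synaptobrevin zips up with a syntaxin and a Snap protein of the target membrane and pulls both membranes together. Munc18 and Munc13 proteins guide this assembly, tomosyns compete with it, complexins hold the assembled complex, and synaptotagmins trigger fusion when calcium enters. RIM proteins anchor the machinery at the active zone, and synapsins tether the reserve of vesicles. In the hippocampus this machinery sets how reliably the excitatory synapses of the principal cells release glutamate. Not every row chosen by symbol serves release. Many syntaxins work at endosomes, Golgi or endoplasmic reticulum, Snap91 (AP180) is a clathrin assembly protein, and Stxbp3-ps is a processed pseudogene whose reads may come from Stxbp3.

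Libraries held 14974750 to 23220455 counted reads, and the 67 genes took 1.47% to 1.55% of them. The knocked-out gene had 64.3 to 70.3 CPM (read counts scaled to library size) in wild type and 24.1 to 35.8 CPM in cKO, so RNA of Ctcf remained at 0.47 of its wild type level. Pan-neuronal markers summed to 2896 to 3142 CPM in wild type and 2751 to 3089 CPM in cKO. Markers of hippocampal excitatory neurons summed to 1678 to 1717 CPM in wild type and 1616 to 2333 CPM in cKO. Of these 8 markers 7 had a positive log2 fold change, among them Fibcd1 (1.17, adjusted p = 0.142 by edgeR and 0.00705 by DESeq2), and Wfs1 was called lower (-1.16, adjusted p = 0.00775 by edgeR). Libraries and genotypes also differed in markers of other regions and cell types. All 8 striatal markers had negative log2 fold changes, with a summed level of 622 to 3016 CPM in wild type, highest in replicate 2, and 134 to 365 CPM in cKO. All 10 choroid plexus markers did too, at 6311 to 12390 CPM in wild type and 615 to 6965 CPM in cKO, lowest in cKO replicate 1. The same held for all 8 oligodendrocyte markers, at 13809 to 18317 CPM and 10556 to 13937 CPM. None of these markers was at 0 in all libraries, and none of the 3 lists had a called member. Their part in the results below was not tested. Fits that leave libraries out or take a marker level as a covariate are given below. The striatal level did not overlap between genotypes, so the fit with the striatal covariate cannot separate striatal content from genotype.

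Of the 62 tested release genes, 5 were higher in cKO and 0 were lower at an adjusted p below 0.05 (edgeR's quasi-likelihood test, Benjamini-Hochberg adjustment over all genes). The 5 were the syntaxins Stx2 and Stx3, the tomosyns Stxbp5 and Stxbp5l, and the synaptotagmin Syt13. Over all tested genes 1.05% were called higher and 0.463% lower. The rest of the machinery showed no common shift. The median log2 fold change was 0.04 over the 62 genes, with 33 positive and 29 negative, against -0.0042 over all genes. At an unadjusted p below 0.05 there were 19 of the 62, against 19.9% of all genes. The 14 of them that were not called comprised 6 with a positive and 8 with a negative change. The groups did not overlap in CPM for 11 genes that were higher and 7 that were lower in cKO, against 14.6% and 12.4% of all genes, so these shares lay near the background.

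The same 5 genes were called by limma-voom, while DESeq2 and the authors' deposited table called more. DESeq2 called 9 of the 62 at the same threshold, 7 higher and 2 lower, against 5.81% of all genes. It added Syt7 and Unc13b to the higher genes and called Cplx2 and Vamp8 lower. By the adjusted p of the authors' deposited table, 8 of the 66 members with a value passed, 6 higher and 2 lower, against 4.06% of all genes in that table. All 5 genes called by edgeR passed by DESeq2 and by the authors' adjusted p. In whole tissue, fewer cells of a type and less RNA per cell cannot be told apart, which holds for every comparison here.

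**Figure D1:**
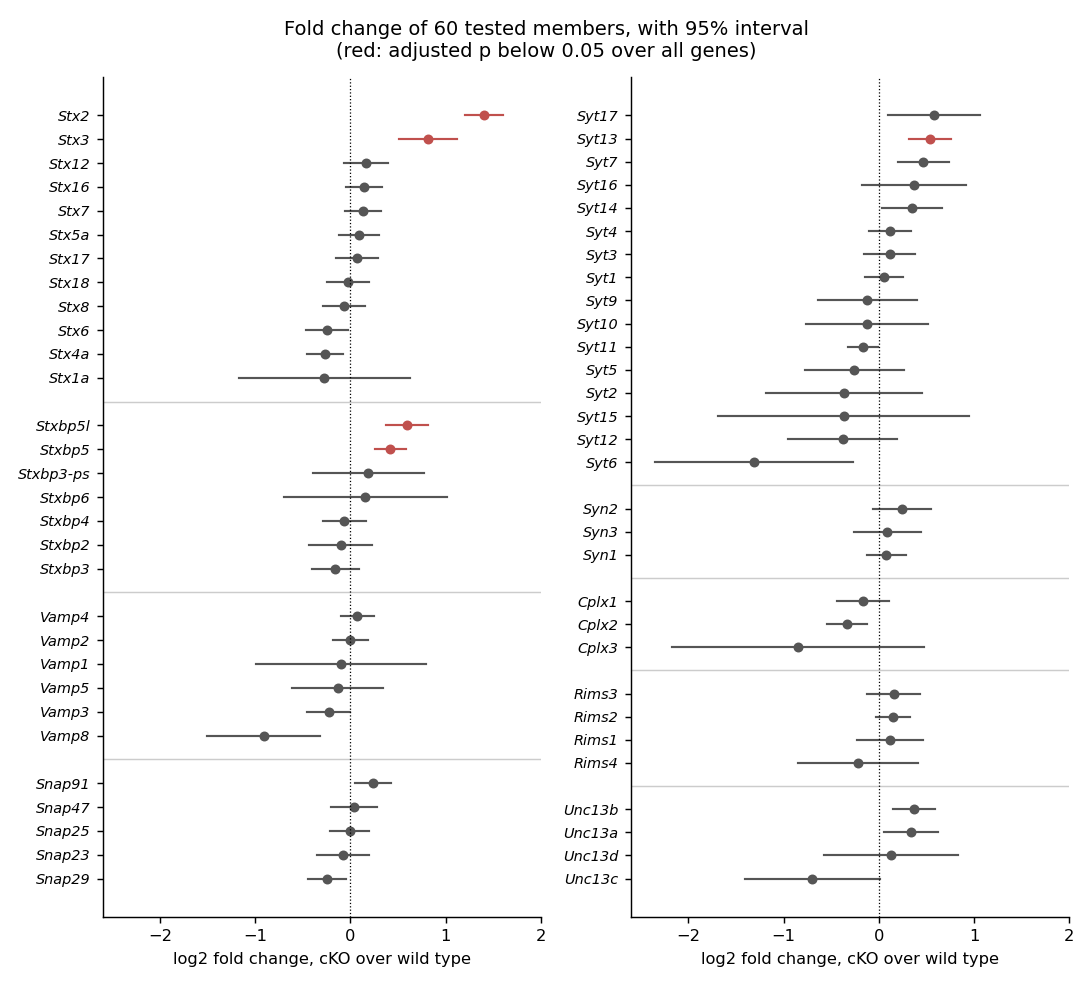
Log2 fold change of cKO over wild type for 60 of the tested genes, by family, with 95% confidence intervals from the edgeR fit (3 libraries per genotype). Red marks the 5 genes with an adjusted p below 0.05, of which Stx2 lies farthest to the right at 1.40, while the intervals of Snap25, Vamp2 and Syt1 are short and hold 0.

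Among the plasma membrane syntaxins, which supply the target-side SNARE of exocytosis, Stx2 and Stx3 rose while Stx1a and Stx4a did not pass. Stx2, first described as epimorphin, had 22.4, 25.2 and 22.1 CPM in the wild type libraries, given here and below in the order of their replicate numbers, and 64.0, 61.9 and 58.7 CPM in the cKO libraries. The groups were far apart and the libraries within each were close. The rise was 2.65-fold, or 1.40 on the log2 scale (SE 0.08, adjusted p = 0.0027 by edgeR). Stx2 was the one gene of the 62 called without any 1 of the 6 libraries, with an adjusted p between 0.0020 and 0.0317. A fit that took the striatal markers as a covariate called 0 genes in all and gave Stx2 a log2 fold change of 1.51 and an adjusted p of 0.208.

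Stx2 lies on chromosome 5 (128984557 to 129008574, GRCm38, minus strand). RefSeq gives it a pair of start sites, and the window from 250 bases before to 50 bases after the upstream one has 25 CpG pairs and 64.3% GC. Stx3 starts in a window of another kind, with 8 CpG pairs and 44.0% GC, and Stxbp5 in the most CpG-rich of those shown, with 47 pairs and 79.0% GC. Over 14403 such windows of tested genes the median was 19 CpG pairs (quartiles 10 and 28) and 60.3% GC. The windows of these called genes are shown to compare how they are built, from RefSeq on GRCm38.p6, 5′ to 3′ along the gene's strand, with CpG pairs in capitals. They lie at chr5:129008523-129008822, chr19:11819354-11819653 and chr10:9900991-9901290, all on the minus strand.
Stx2: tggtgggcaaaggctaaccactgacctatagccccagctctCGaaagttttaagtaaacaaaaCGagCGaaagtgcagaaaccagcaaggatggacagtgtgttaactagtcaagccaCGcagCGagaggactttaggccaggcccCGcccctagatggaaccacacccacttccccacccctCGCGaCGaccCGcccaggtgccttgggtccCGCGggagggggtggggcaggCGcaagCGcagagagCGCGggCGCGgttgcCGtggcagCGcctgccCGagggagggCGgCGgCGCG
Stx3: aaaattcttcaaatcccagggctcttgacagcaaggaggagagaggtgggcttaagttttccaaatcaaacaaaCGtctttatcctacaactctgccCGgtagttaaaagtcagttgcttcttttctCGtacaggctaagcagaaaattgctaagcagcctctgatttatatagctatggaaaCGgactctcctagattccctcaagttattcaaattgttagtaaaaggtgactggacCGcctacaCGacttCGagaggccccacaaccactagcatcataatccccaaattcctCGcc
Stxbp5: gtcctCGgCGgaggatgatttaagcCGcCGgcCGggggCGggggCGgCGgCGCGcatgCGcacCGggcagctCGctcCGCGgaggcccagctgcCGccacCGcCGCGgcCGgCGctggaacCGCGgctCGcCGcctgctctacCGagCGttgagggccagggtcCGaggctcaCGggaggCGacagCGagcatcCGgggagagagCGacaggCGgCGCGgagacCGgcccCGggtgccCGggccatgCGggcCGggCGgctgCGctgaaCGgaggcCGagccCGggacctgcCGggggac

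The 3 windows differ widely in CpG content. The window of Stxbp5l, not shown, has 18 CpG pairs and 65.0% GC, and Syt13 had no window. Whether CpG content has a part in the rise was not tested. The consensus core of the CTCF binding motif, searched on both strands, is in none of the 3 windows shown. It is also absent from the windows of Stx2's downstream start and of Stxbp5l. It is in 0.715% of the windows of tested genes, and in 0 of the 46 release genes that had a window. The GC box GGGCGG, which contains a CpG pair counted above, is in the windows of Stx2, Stxbp5 and Stxbp5l but not of Stx3, and in 60.1% of the windows of tested genes. A missing match says only that these letters are not in the window.

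Stx3, a syntaxin of ribbon synapses and of polarised exocytosis, had 40.2, 28.9 and 37.5 CPM in wild type and 68.0, 60.0 and 59.8 CPM in cKO. Every cKO library lay above every wild type library, and wild type replicate 2 was the lowest of all. The log2 fold change was 0.82 (SE 0.13, adjusted p = 0.0424 by edgeR). The call held without wild type replicate 2 (adjusted p = 0.0244 by edgeR). It was lost without wild type replicate 1 (0.0574) or 3 (0.115) and without cKO replicate 1 (0.179), 2 (0.160) or 3 (0.0803), and with the striatal covariate, where the log2 fold change was 0.33.

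Stx1a, a neuronal syntaxin of synaptic vesicle release, had 84.8, 207.7 and 85.3 CPM in wild type and 134.4, 106.8 and 71.7 CPM in cKO. The genotypes overlapped, and wild type replicate 2 stood above all other libraries. The log2 fold change of -0.27 had an adjusted p of 0.73 by edgeR and was 0.29 without that library. Stx4a, the syntaxin of regulated exocytosis in many cell types, had 63.3, 69.2 and 59.4 CPM in wild type and 53.6, 54.7 and 51.1 CPM in cKO. There was no overlap, at a log2 fold change of -0.27 (adjusted p = 0.145 by edgeR). Stx4a shares 124 bases of exon with a gene on the opposite strand, so without strand information part of its reads is uncertain.

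The make-up of Stx1a, Stx2, Stx3 and Stx4a can be given as shares of their summed level per kilobase of exon. Stx2 made up 6.21% ± 1.33 in wild type and 15.8% ± 1.88 in cKO (SD, n = 3). Stx3 made up 7.95% ± 3.17 and 12.9% ± 1.48. For Stx1a the shares were 52.7% ± 11.7 and 44.8% ± 6.82, and for Stx4a 33.2% ± 7.22 and 26.5% ± 3.60. Stx1a thus stayed the largest of these 4 in every library, beside a share of Stx2 that was above the wild type values in all 3 cKO libraries.

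**Figure D2:**
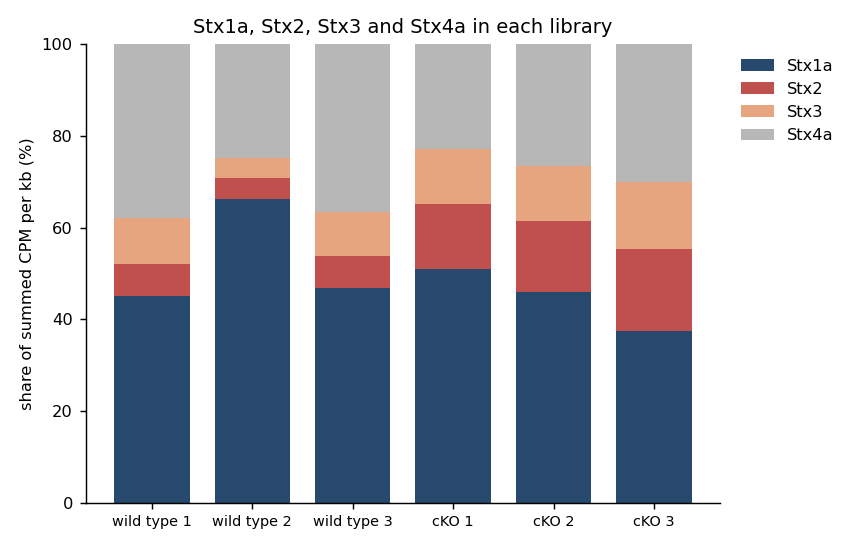
Share of Stx1a, Stx2, Stx3 and Stx4a in their summed CPM per kilobase of exon, 1 bar per library. The Stx2 band is 4.67% to 7.04% of the bar in wild type and 14.1% to 17.8% in cKO, and the Stx1a band is widest in wild type replicate 2 at 66.2%.

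Both tomosyns, syntaxin-binding proteins that carry a SNARE motif of their own and hold back vesicle priming, rose. Stxbp5l (tomosyn-2) had 122.0, 128.4 and 125.0 CPM in wild type and 187.1, 212.7 and 168.2 CPM in cKO. The wild type libraries were within a few CPM of each other and all cKO libraries were above them. The log2 fold change was 0.60 (SE 0.10, adjusted p = 0.0424 by edgeR). Stxbp5 (tomosyn-1) had 89.3, 81.2 and 88.3 CPM in wild type and 118.0, 117.4 and 111.0 CPM in cKO. Its groups did not overlap either, at a log2 fold change of 0.42 (SE 0.07, adjusted p = 0.0450 by edgeR). Per kilobase of exon the sum of both was 19.7 to 20.0 CPM in wild type and 26.5 to 32.1 CPM in cKO, and Stxbp5l made up 73.8% ± 1.46 and 76.0% ± 1.67 of it (SD, n = 3).

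The log2 fold changes of both tomosyns stayed positive when any 1 library was left out, at 0.51 to 0.67 for Stxbp5l and 0.38 to 0.45 for Stxbp5, but the calls did not hold. For Stxbp5l the call held without cKO replicate 3 (adjusted p = 0.0493 by edgeR) and was lost without wild type replicate 1 (0.0959), 2 (0.0519) or 3 (0.119) and cKO replicate 1 (0.177) or 2 (0.143). For Stxbp5 it was lost without wild type replicate 1 (0.0859), 2 (0.0636) or 3 (0.119) and cKO replicate 1 (0.180), 2 (0.187) or 3 (0.0803). Both calls were also lost with the striatal covariate, where Stxbp5l had 0.74 (adjusted p = 0.453 by edgeR) and Stxbp5 0.29 (0.467). With the choroid plexus covariate they were lost too, at 0.66 (0.226) and 0.38 (0.287). These fits called 0 and 4 genes in all, in that order, against 225 in the main fit.

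Other syntaxin-binding proteins did not pass. Stxbp3, a widespread Munc18 protein that clasps syntaxin, had a log2 fold change of -0.16 (adjusted p = 0.44 by edgeR). Stxbp6 (amisyn), another syntaxin-binding protein, had 96.9, 35.4 and 109.7 CPM in wild type and 97.7, 76.0 and 96.1 CPM in cKO, so wild type replicate 2 alone was far below the rest.

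**Figure D3:**
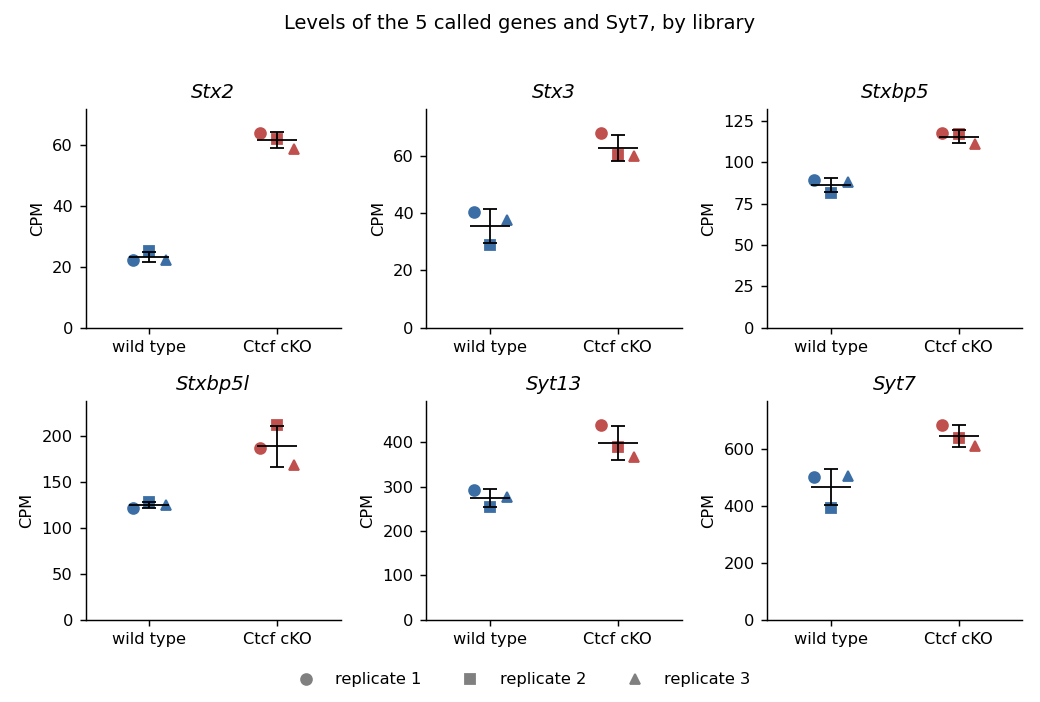
CPM of the 5 genes called higher in cKO and of Syt7, 1 point per library with the mean and SD of each genotype (n = 3) and an axis from 0. In each panel all 3 cKO libraries lie above all 3 wild type libraries, and for Stx2 the cKO mean of 61.5 CPM stands against 23.2 CPM.

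None of the remaining SNAREs of synaptic release passed. Vamp2, the main synaptobrevin of the forebrain, had 1095 to 1205 CPM in wild type and 1094 to 1203 CPM in cKO, with a 95% interval of the log2 fold change from -0.18 to 0.18. Snap25, the neuronal Snap protein, had 2185 to 2452 CPM and 2188 to 2429.8 CPM, with an interval of -0.21 to 0.19. For both genes the genotypes overlapped almost fully. Vamp1, the synaptobrevin of brain stem and spinal cord, varied within both genotypes, at 503.6, 192.9 and 381.5 CPM in wild type and 307.1, 219.7 and 477.7 CPM in cKO, and its interval ran from -0.99 to 0.79. Vamp4, an endosomal and Golgi vesicle SNARE, had a log2 fold change of 0.07.

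Vesicle SNAREs of other routes did not pass by edgeR. Vamp8 (endobrevin), of endosomes and of secretory cells, had 17.5, 24.4 and 14.8 CPM in wild type and 6.95, 12.4 and 10.7 CPM in cKO. The groups did not overlap. A log2 fold change of -0.91 (SE 0.25) had an adjusted p of 0.125 by edgeR, and DESeq2 called it lower (adjusted p = 0.0164). With the striatal covariate its log2 fold change was -0.070, and with the choroid plexus covariate -0.46. Vamp3 (cellubrevin), a widespread vesicle SNARE, had a log2 fold change of -0.23 (adjusted p = 0.25 by edgeR). Among the Snap proteins Snap29, of endosomal and autophagic fusion, had -0.24 (0.189), Snap23, the counterpart of Snap25 outside neurons, -0.08 (0.744), and the clathrin assembly gene Snap91 0.24 (0.181). Vamp7 was listed at 0 in every library and had no match in the annotation used for exon lengths, so this 0 is not read as a level.

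Of the synaptotagmins, Syt13 rose. It belongs to the members that do not bind calcium. Syt13 (chromosome 2, 92915098 to 92956058, GRCm38) had 292.6, 253.7 and 276.2 CPM in wild type and 439.7, 388.2 and 366.0 CPM in cKO. The lowest cKO library lay well above the highest wild type library. The log2 fold change was 0.54 (SE 0.10, adjusted p = 0.0479 by edgeR). This was the call nearest to the threshold. It was lost with upper-quartile scaling (adjusted p = 0.0508), without wild type replicate 1 (0.0831), 2 (0.0639) or 3 (0.133) and without cKO replicate 1 (0.180), 2 (0.187) or 3 (0.0741), while the log2 fold change stayed between 0.46 and 0.59 without any 1 library. With the striatal covariate it was 0.25 (adjusted p = 0.519 by edgeR) and with the choroid plexus covariate 0.41 (0.287), so both ended the call. Over all genes these fits called 0 and 4, in that order, against 225 in the main fit.

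Syt7, the slow, high-affinity calcium sensor of asynchronous release and facilitation, had 502.4, 392.4 and 505.2 CPM in wild type and 686.2, 639.4 and 610.0 CPM in cKO. The groups did not overlap, and wild type replicate 2 was lowest. Its log2 fold change of 0.47 (SE 0.11) had an adjusted p of 0.0941 by edgeR, was called by DESeq2 (0.0077), and was 0.11 with the striatal covariate. It shares 5.13% of its exon bases with a gene on the other strand.

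The fast calcium sensors did not differ beyond the spread between libraries. Syt1, the main one of the forebrain, had 1117 to 1289 CPM in wild type and 1192 to 1309 CPM in cKO, with a 95% interval of the log2 fold change from -0.15 to 0.25. Syt1 made up 88.5% ± 3.51 of the summed level of Syt1, Syt2 and Syt9 per kilobase in wild type and 90.0% ± 2.80 in cKO (SD, n = 3). Syt11, which does not bind calcium and is the most abundant synaptotagmin per kilobase, had 942.6 to 1006 CPM in wild type and 865.8 to 872.1 CPM in cKO. Its groups did not overlap although the log2 fold change was -0.17 (adjusted p = 0.236 by edgeR).

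Less abundant synaptotagmins moved in both directions without passing. Syt6, a calcium-binding synaptotagmin known from the acrosome reaction of sperm, had 30.7, 93.2 and 33.5 CPM in wild type and 14.6, 24.0 and 24.3 CPM in cKO. The groups did not overlap, and the mean of the wild type was raised by replicate 2. The log2 fold change was -1.32 (SE 0.44, adjusted p = 0.173 by edgeR), -0.61 without that library and 0.65 with the striatal covariate. Syt17 had 19.3, 11.2 and 18.9 CPM in wild type and 27.5, 23.2 and 23.3 CPM in cKO, a log2 fold change of 0.58 (adjusted p = 0.188 by edgeR), and Syt14, which does not bind calcium, had 0.35 (0.219). Syt17 turned to -0.18 with the striatal covariate.

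Complexins, which bind the assembled SNARE complex, had negative log2 fold changes in all 3 tested members. Cplx2, one of the main pair in the hippocampus, had 1354, 1553 and 1503 CPM in wild type and 1236, 1190.0 and 1078 CPM in cKO. All cKO libraries lay below all wild type libraries. At a log2 fold change of -0.33 (SE 0.09) the adjusted p was 0.121 by edgeR, and DESeq2 called it lower (0.0188), while the striatal covariate left -0.22. Cplx1, the other of that pair, had -0.16 (adjusted p = 0.473 by edgeR). Summed per kilobase the complexins were at 740.0 to 783.5 CPM in wild type and 589.8 to 678.0 CPM in cKO, so these groups did not overlap. Cplx3, known from retinal ribbon synapses, had 10.5, 55.1 and 17.2 CPM in wild type and 16.1, 18.7 and 11.2 CPM in cKO, and its log2 fold change of -0.85 was 0.13 without wild type replicate 2.

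At the active zone, Munc13 proteins open syntaxin and prime vesicles. Unc13b, which serves a subset of hippocampal synapses, had 48.0, 42.8 and 42.9 CPM in wild type and 60.6, 61.1 and 51.3 CPM in cKO. Its groups did not overlap, and its log2 fold change of 0.37 (SE 0.10) had an adjusted p of 0.107 by edgeR and 0.0492 by DESeq2, and was 0.23 under the striatal covariate. Unc13a, the main Munc13 of glutamate release, had 305.7, 372.0 and 325.9 CPM and 470.3, 441.3 and 360.0 CPM. Here cKO replicate 3 lay below wild type replicate 2, at a log2 fold change of 0.34 (adjusted p = 0.190 by edgeR). Unc13c, best known from cerebellar granule cells, had 80.6, 59.0 and 111.6 CPM and 47.5, 34.9 and 72.1 CPM, and its groups overlapped (log2 fold change -0.70, adjusted p = 0.258 by edgeR). Unc13a made up 69.1% ± 6.61 of the summed level per kilobase in wild type and 79.0% ± 5.69 in cKO (SD, n = 3), and Unc13c 24.7% ± 6.95 and 14.0% ± 6.02.

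None of the 4 RIM genes passed. Rims2 was the largest part per kilobase with 46.9% ± 3.53 in wild type and 48.1% ± 2.23 in cKO (SD, n = 3), ahead of Rims1 with 34.7% ± 3.40 and 34.8% ± 2.94, Rims3 with 10.8% ± 2.45 and 11.0% ± 0.57, and Rims4 with 7.52% ± 2.36 and 6.08% ± 0.40. Rims2 stood ahead of Rims1 in every library. The log2 fold changes were 0.15 for Rims2 (adjusted p = 0.319 by edgeR), 0.16 for Rims3 (0.499) and -0.22 for Rims4 (0.689), the short forms of the family. Rims4 was at 13.8 CPM in wild type replicate 2 and at 6.35 to 9.12 CPM in the other libraries.

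The synapsins, which cover the vesicle surface, had small positive log2 fold changes that did not pass. Syn1 had 713.1 to 813.0 CPM in wild type and 759.4 to 857.8 CPM in cKO (log2 fold change 0.08, 95% interval -0.13 to 0.28). Syn2 had 528.7, 380.0 and 522.0 CPM in wild type and 590.0, 554.7 and 551.1 CPM in cKO, with no overlap of the groups (log2 fold change 0.25, adjusted p = 0.341 by edgeR). For Syn3 the log2 fold change was 0.09 (adjusted p = 0.779 by edgeR), and it was -0.05 without wild type replicate 2. Syn3 shares 14.1% of its exon bases with Timp3 on the opposite strand.

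Of the syntaxins of endosomes, Golgi and endoplasmic reticulum none passed. Stx6, of the trans-Golgi network, had 94.6, 107.7 and 96.1 CPM in wild type and 92.2, 82.8 and 76.3 CPM in cKO. The cKO libraries were all lower, and the log2 fold change was -0.25 (adjusted p = 0.208 by edgeR). Stx12, Stx7 and Stx8 of endosomes, Stx16 and Stx5a of the Golgi, Stx17 of autophagosomes and Stx18 of the endoplasmic reticulum overlapped between genotypes. Stx11 and Stx19, with Cplx4, Syt8 and Vamp7, were not tested, as none had more than 7 counts in any library.

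Levels per kilobase of exon put the classical synaptic genes on top in both genotypes. Cplx1 led with a mean over both genotypes of 426.0 CPM per kilobase, followed by Snap25 with 337.1, Vamp2 with 300.2, Cplx2 with 267.7 and Syn1 with 234.9. The order of these 5 was the same in both genotypes except for Cplx2 and Syn1. Cplx2 was above Syn1 in wild type, at 298.3 ± 21.0 against 228.6 ± 15.8 CPM per kilobase, and in cKO they did not differ beyond their spread, at 237.0 ± 16.5 and 241.2 ± 16.4 (SD, n = 3). The genes called higher lay further down. Syt13 stood at 89.4 CPM per kilobase (rank 10 of 66), Stxbp5l at 18.5 (rank 25), Stx2 at 9.24 (rank 32), Stx3 at 8.59 (rank 36) and Stxbp5 at 6.11 (rank 44). Stx2 lay below Stx3 in wild type, at 5.07 ± 0.38 against 6.22 ± 1.03 CPM per kilobase, and above it in cKO, at 13.4 ± 0.59 against 11.0 ± 0.82 (SD, n = 3). In wild type these neighbours in level did not differ beyond their spread. In CPM not divided by exon length, the cKO means were 61.5 ± 2.70 for Stx2 and 62.6 ± 4.68 for Stx3. Their order in cKO thus rests on the exon lengths used. Per kilobase, both genes stayed below Stx1a and Stx4a in both genotypes.

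**Figure D4:**
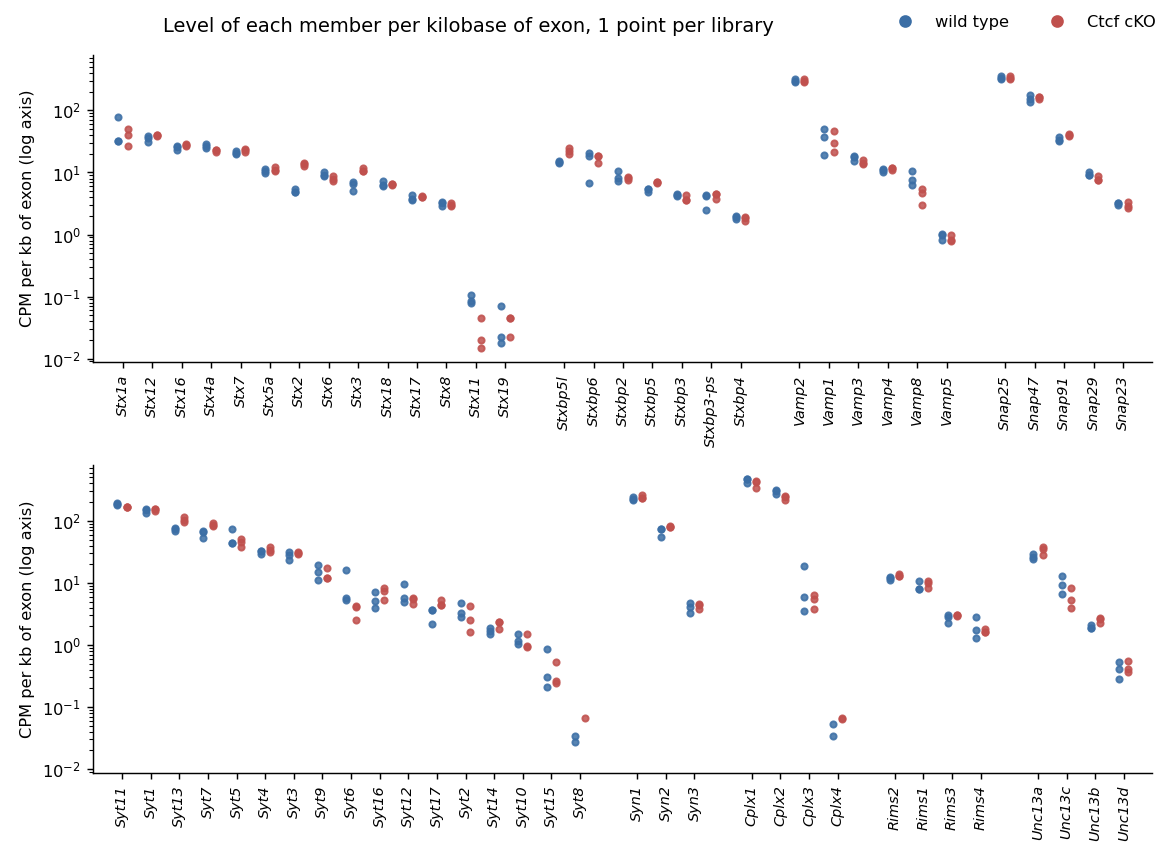
CPM per kilobase of exon for the genes shown, on a log axis, 1 point per library, ordered by mean within each family (values of 0 cannot be drawn). Mean levels span from 426.0 for Cplx1 to under 0.1 for the untested Stx11, Stx19, Cplx4 and Syt8, and the genotypes overlap for most genes.

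For several members 1 library stood apart from the other 5. Wild type replicate 2 was the lowest library for 23 of the 62 genes and the highest for 17, more often at either end than any other library. It was highest for Syt6, Cplx3, Stx1a, Syt5, Rims4 and Syt12 and lowest for Stxbp6, Vamp1, Syn2 and Stx3. Syt5, for example, had 177.5 CPM there and 91.7 to 122.2 CPM elsewhere, and Syt12 had 53.8 CPM against 25.1 to 31.8 CPM. The same library had the highest striatal sum, 3016 CPM against 134 to 1240 CPM, and the lowest thalamic sum, 288 CPM against 659 to 908 CPM. Without this library and cKO replicate 1 together, Stx2 and Stx3 were called. Vamp1 and Stx3 were not cases of 1 library apart from the other 5. Vamp1 had 192.9 CPM in wild type replicate 2 and 219.7 CPM in cKO replicate 2. For Stx3 every wild type library lay below every cKO library.

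**Figure D5:**
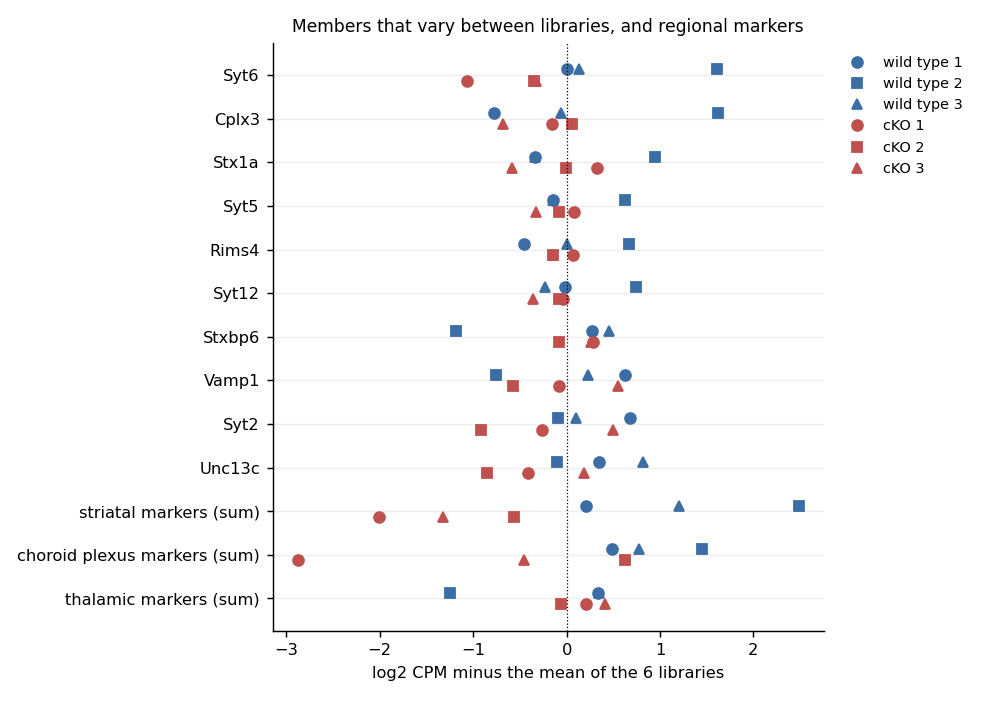
Log2 CPM minus the mean of the 6 libraries for 10 genes that vary between libraries and for summed striatal, choroid plexus and thalamic markers, 1 symbol per library. Wild type replicate 2 (blue square) is far right for Syt6, Cplx3 and Stx1a as for the striatal sum, and far left for Stxbp6 and Vamp1 as for the thalamic sum.

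Of the 20 tested genes that flank the 5 called members, with 2 on each side, 0 were called by edgeR, where 3 had an unadjusted p below 0.05. DESeq2 called 1, as did the authors' deposited table. Over all genes edgeR called 1.05% higher and 0.463% lower, and 19.9% had an unadjusted p below 0.05. DESeq2 called 5.81% of all genes, and 4.06% passed by the authors' adjusted p. The counts of flanking genes thus lay near the background. The flanking gene with the smallest p was Rimbp2, 30.9 kb from Stx2, which encodes a RIM-binding protein of the active zone. It had 63.1, 57.7 and 62.1 CPM in wild type and 84.8, 100.9 and 71.1 CPM in cKO. Its groups did not overlap, and its log2 fold change was 0.49 (adjusted p = 0.110 by edgeR). Rimbp2 was the flanking gene that DESeq2 called (adjusted p = 0.0245). Ran, 11.6 kb to the other side of Stx2, had 0.21 (0.237), Mrpl16, 0.2 kb from Stx3, had -0.03 (0.894), and Prdm11, 9.1 kb from Syt13, had 0.80 (0.189). These flanking genes were named after their values were seen.

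A list of 50 further genes of the vesicle cycle, among them active zone scaffolds, Rab proteins, vesicle proteins, transmitter transporters and endocytic proteins, gave no call by edgeR. Of 49 tested, 0 were called by edgeR, and 31 had a positive and 18 a negative log2 fold change, with a median of 0.04. An unadjusted p below 0.05 was found for 14 of the 49, against 19.9% of all genes. DESeq2 called 5 higher and 1 lower, and 4 were higher and 1 lower by the adjusted p of the authors' deposited table. Over all genes DESeq2 called 5.81%, and 4.06% passed by the authors' adjusted p. Whether the list differs from all genes in these shares was not tested. The smallest p of the list belonged to Pclo, the active zone scaffold piccolo. Pclo had 279.0, 303.5 and 285.3 CPM in wild type and 383.0, 385.5 and 338.1 CPM in cKO. All cKO libraries were higher, at a log2 fold change of 0.35 (adjusted p = 0.0833 by edgeR). Slc32a1, the vesicular transporter of inhibitory transmitters, had 128.0, 179.0 and 139.2 CPM in wild type and 97.0, 92.9 and 109.4 CPM in cKO. These groups did not overlap (log2 fold change -0.58, adjusted p = 0.0867 by edgeR), and a fit with the striatal covariate gave -0.16. The 6 inhibitory neuron markers, which include it, summed to 763 to 962 CPM in wild type and 641 to 767 CPM in cKO, and their part in this value was not tested. Rab27b, a Rab protein of secretory vesicles, had 0.53 (0.0942), which was 0.12 with the striatal covariate, and Lin7a, a presynaptic scaffold protein, 0.39 (0.0990). Beside these 4 genes, DESeq2 called Rimbp2 and Ppfia2, the liprin-alpha-2 of active zones, which was named after its values were seen. Ppfia2 had 124.8, 59.9 and 137.7 CPM in wild type and 205.5, 194.1 and 193.1 CPM in cKO, at a log2 fold change of 0.88 (adjusted p = 0.150 by edgeR and 0.0167 by DESeq2), with wild type replicate 2 lowest.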

How the data were processed

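Whole-number read counts per gene for the 6 libraries were deposited by the authors in 1 table, per the file headers. The authors' own log2 fold change of cKO over wild type is deposited beside them, as are their p-value and its adjusted form. The build is mm10 per the submitters' processing notes, which also name DESeq2 (1.6.3), HTSeq (0.6.1p1), TopHat2 (2.0.10) and cutadapt. No source used here states whether counting used strand, which leaves genes that overlap on opposite strands uncertain.

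Counts were tested on the whole table with edgeR 4.0.16 in R 4.3.3 (quasi-likelihood, TMM, expression filter with a minimum count of 10). Adjustment was by Benjamini-Hochberg over all 14916 tested genes, at a threshold of 0.05, and adjusted p-values are from this test unless another is named. It was tested on simulated data first. Those counts were drawn independently for each library with no difference in tissue content, so they cannot speak to the marker differences given above. CPM uses TMM library sizes. Exon lengths came from GENCODE M21 on GRCm38 (mm10), for 66 of the 67 genes, and promoter windows from RefSeq on GRCm38.p6. The form of the CTCF motif was set after a looser form had been searched. Intervals are at 95%. The labels do not say whether mice were processed together.

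Named genes were all members with an unadjusted p below 0.05, the 3 smallest p and the highest level per kilobase of each family, and the 4 smallest p of the further list. A few genes stay in the counts of members and are not reported here by name. The members and the lists were chosen with earlier results of these data known. Alternatives were DESeq2 1.42.0, limma-voom (limma 3.58.1), 3 scalings, 2 filters, other thresholds, libraries left out, 2 marker covariates and the replicate number.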

Additional observations from a re-analysis of the deposited data

How the results depend on the processing

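The count of release genes called by edgeR, 5, stayed between 4 and 6 with limma-voom, each of 3 other scalings, both other filters and an adjusted p below 0.1. It was 9 with DESeq2, 1 at an adjusted p below 0.01, 1 to 2 without any 1 library, 2 without wild type replicate 2 and cKO replicate 1 together, 1 with the choroid plexus covariate and 0 with the striatal covariate, where 5 genes had an unadjusted p below 0.05. Stx2 was among the called genes in each of these fits except the last. Fits without a library have fewer samples and called 12 to 147 genes in all, against 225. With the choroid plexus covariate 4 genes were called in all, and with the striatal covariate 0. The striatal level did not overlap between genotypes, so that fit has little left by which to tell genotype apart. Calls lost and fold changes shifted under it cannot be read as a link of single genes to striatal content. Why the covariates ended calls was not tested.

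Replicate numbers are shared by both genotypes, but the labels do not say that they are pairs, and they were not taken as such. Deviations of same-numbered libraries correlated at 0.22, 0.43 and 0.08. Differently numbered libraries were not compared, so these values cannot decide whether the numbers are pairs. With the replicate block 5 genes were called, of which 4 were shared: Stxbp5 was lost and Unc13c was called lower (log2 fold change -0.71, adjusted p = 0.0288 by edgeR).

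Over 38 named genes and 722 alternative values, 636 kept direction and side of the threshold, 40 lost a call, 14 gained one and 32 changed sign. All sign changes were in genes not called, with an adjusted p of at least 0.453, and the cause was not tested. With the striatal covariate the log2 fold change was 1.56 for Cplx3, -0.18 for Rims3, 0.65 for Rims4, 0.020 for Snap23, 0.016 for Snap25, 0.70 for Stx1a, 0.040 for Stxbp3, -0.19 for Syn2, -0.52 for Syn3, -0.18 for Syt17, 0.65 for Syt6 and 0.090 for Vamp3. With the choroid plexus covariate it was 8.7e-05 for Snap25, -0.12 for Syn3 and -0.023 for Vamp2. With both wild type replicate 2 and cKO replicate 1 left out it was 0.088 for Cplx3, 0.055 for Rims4, 0.063 for Stx1a and -0.11 for Syn3. For Vamp2 it was -0.0056 with DESeq2, -0.0055 with its size factors and -0.016 with upper-quartile scaling. Without any 1 library it ranged from -1.24 to 0.13 for Cplx3, -0.44 to 0.13 for Rims4, -0.057 to 0.044 for Snap25, -0.50 to 0.29 for Stx1a, -0.047 to 0.23 for Syn3 and -0.036 to 0.041 for Vamp2.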
